A study of Drosophila melanogaster with 12 samples.

Results

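Eukaryotic initiation factors (eIFs) are the proteins that bring the ribosome to the start codon of an mRNA. Their probe sets were followed here in Drosophila testes of 4 genotypes. Every probe set whose only annotated symbol starts with eIF was taken, which gave 44 probe sets for 40 genes out of 18769 fly probe sets on the array. Extra gene copies account for 9 of the 44 probe sets, 1 each for eIF3d2, eIF3f2, eIF3g2, eIF4E3, eIF4E4, eIF4E5, eIF4E6, eIF4E7 and eIF4G2. The other 35 probe sets represent 31 genes counted here as the general machinery. Among them are eIF4H2, a second form of eIF4H, and the cap-binding repressor eIF4EHP. Each of the 44 carried a symbol listed in the release 6 gene table, where 44 eIF genes stand. eIF1A, eIF2alpha, eIF2gamma and eIF4H1 have no probe set with a single symbol and were not analysed here, nor were 2 probe sets that CG17010 shares with eIF4E7.

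The testes came from adults 1 day old, raised at 25 °C, with 3 Affymetrix arrays for each genotype and 12 arrays in all. The wild-type group is labelled y,w, whereas the methods of the study call the published wild-type set red,e. The aly group carried aly2/aly5P and lacked a subunit of tMAC, the testis meiotic arrest complex. The sa group carried sa1/sa2 and lacked a testis-specific TAF, a testis form of a TFIID subunit. The Med22RNAi group expressed 1 hairpin against the Mediator subunit Med22 under bam-gal4, which acts in late spermatogonia and spermatocytes, so the somatic cells and the earliest germ cells were not targeted. The methods add UAS-Dicer2 to these crosses, and no driver-only arrays were analysed here. Spermatocytes of the Med22RNAi, aly and sa testes stop before the meiotic divisions. Per the methods, the Med22RNAi arrays were prepared for the study and the other sets had been published, so the knockdown and its set of arrays cannot be told apart. Whether the y,w arrays are that published wild-type set is not stated. In whole testes, fewer cells of a type and less RNA per cell cannot be told apart either.

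Initiation starts when eIF2 brings the initiator tRNA to the small ribosomal subunit, while eIF2B recharges eIF2 with GTP and eIF3, a complex of many subunits, holds the assembly together. At the other end of the mRNA, eIF4E binds the cap, eIF4G bridges cap and ribosome, and the helicase eIF4A, aided by eIF4B and eIF4H, unwinds the leader. Male germ cells make many mRNAs long before their proteins are needed, and Drosophila has extra copies of eIF4E, eIF4G and several eIF3 subunits. In flies, eIF4E3 and eIF4G2 are known to be needed in spermatocytes for meiosis and the forming of sperm.

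Values are log2 signals after GCRMA, in which the lowest value on any array is 2.11. A value under 3 is close to that bottom. Differences were tested with limma over all probe sets, and a probe set was called when its Benjamini-Hochberg adjusted p was under 0.05 and its change at least 4-fold, a log2 change of 2. Signals of different probe sets are not comparable as levels, so only changes are compared between genes. Of the 44 probe sets, 42 had a mean log2 signal of at least 6 over the 12 arrays. Changes against wild type in the 3 mutant groups share the same 3 wild-type arrays.

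The median log2 signal of an array ranged from 3.66 to 3.80 in the wild-type group and from 4.15 to 4.25 after Med22 knockdown, while aly arrays had medians of 3.07 to 3.11 and sa arrays of 3.91 to 4.02. Setting these medians equal shifts every log2 change against wild type, by -0.46 for Med22RNAi, by 0.64 for aly and by -0.24 for sa. Between 45.8% and 49.6% of the probe sets of an array lay under a log2 of 3, so the medians, above all those of aly, sit near the dim values. Equal medians therefore need not mean an equal scale for bright probe sets, and calls that end under this setting are to be read with that limit. Arrays of 1 genotype correlated at 0.983 or more over all probe sets. Of the 9 germ-line markers, betaTub85D, Mst87F and ProtA were bright in wild type, at mean log2 signals of 14.7, 15.2 and 14.4, whereas vas was near the lowest value in every genotype. bam, a spermatogonial gene, had a mean log2 signal of 4.77 in wild type and rose in the mutants, with means of 9.21 (Med22RNAi), 9.81 (aly) and 8.50 (sa). Of the 9 markers 2 were called higher and 1 lower in Med22RNAi, 3 and 4 in aly, and 2 and 3 in sa. The lower ones were genes of late spermatocytes and spermatids, namely ProtB in every mutant group (mean log2 signals of 13.6 in wild type, 11.2 in Med22RNAi, 4.67 in aly and 8.01 in sa), dj in aly and sa (9.49 in wild type, then 2.18 and 6.13), ProtA in aly and sa (9.67 and 10.7) and Mst87F in aly (12.9). Accessory gland genes gave signal although the labels say the glands were removed, and the log2 of their summed signal over 5 genes lay, for wild type, Med22RNAi, aly and sa in that order, at 12.8 to 16.1, 12.6 to 14.7, 11.6 to 12.4 and 12.5 to 13.9. For 3 muscle genes the sums lay at 8.46 to 10.2, 11.8 to 12.4, 8.73 to 9.65 and 9.12 to 10.3. For 4 hemocyte genes they lay at 7.08 to 7.78, 10.4 to 10.8, 8.90 to 9.41 and 8.85 to 9.01. The 3 fat body genes gave 11.4 to 12.3, 9.55 to 9.95, 7.29 to 8.48 and 8.57 to 9.56. The 3 somatic cyst cell genes gave 7.995 to 9.32, 9.62 to 10.4, 8.57 to 9.29 and 9.26 to 9.46, and of these tj was near the lowest value throughout while zfh1, at a mean of 2.44 in wild type, reached 6.42 in Med22RNAi.

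The extra copies moved apart from one another. eIF3d2, eIF3g2 and eIF4E4 fell in Med22RNAi testes and fell to the bottom of the scale or close to it in aly testes. eIF4E7 fell in Med22RNAi and aly, and eIF4G2 fell in aly. eIF4E6 rose in every mutant group. eIF3f2, eIF4E3 and eIF4E5 did not pass the 4-fold limit in any of them. The plot of the extra copies shows each array.

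**Figure D1:**
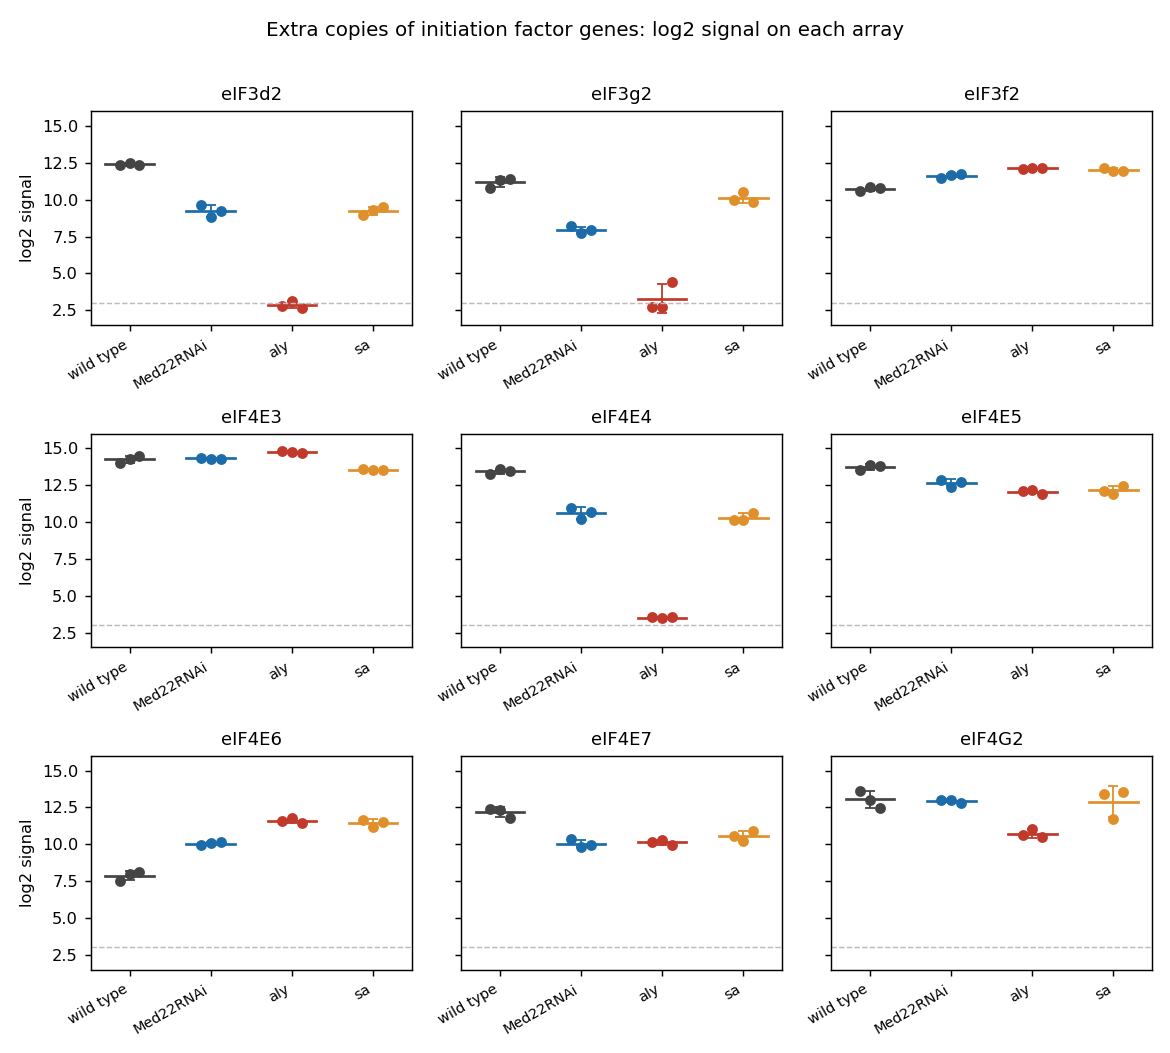
Log2 signal (y axis) of the 9 extra copies on each array, by genotype (x axis). Points are arrays, horizontal bars are means and error bars are SDs of 3 arrays, and the dashed line marks a log2 of 3. eIF3d2, eIF3g2 and eIF4E4 lie near or below 4.41 in aly, and eIF4E6 is lowest in wild type.

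eIF3d2 encodes a second form of subunit d of eIF3, the subunit that can itself contact the cap in human cells. Its log2 signals were 12.35, 12.52 and 12.36 in wild type, 9.67, 8.84 and 9.23 in Med22RNAi, 2.78, 3.14 and 2.68 in aly, and 8.96, 9.29 and 9.48 in sa. Wild type was highest on every array, aly was at the bottom, and Med22RNAi and sa overlapped between them. eIF3d2 fell by 3.16 ± 0.22 on the log2 scale (SE, n = 3 per group), or 8.96-fold, in Med22RNAi (limma adjusted p = 3.98e-06) and by 3.17 ± 0.22 in sa (adjusted p = 4.06e-06). In aly the log2 change was -9.54 ± 0.22 (adjusted p = 2.74e-09), but these aly signals sit at the bottom of the scale, so the fold itself is not resolved. The difference between Med22RNAi and sa was 0.00 with a 95% interval from -0.51 to 0.51. The late germ-line markers ProtB and dj, given above, were also lowest in aly, as eIF3g2, eIF4E4 and eIF4H2 were below. The marker betaTub85D was lowest in sa instead, at a mean of 12.7 against 13.1 in aly. The part of these markers in the changes of the 4 eIF genes was not tested.

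eIF3g2, a second form of the RNA-binding subunit g, separated sa from Med22RNAi. The signals were 10.83, 11.33 and 11.43 in wild type, 8.19, 7.76 and 7.93 in Med22RNAi, 2.73, 2.73 and 4.41 in aly, and 9.96, 10.54 and 9.87 in sa. No genotype overlapped another, and replicate 3 of aly stood above the other two. eIF3g2 fell 9.44-fold in Med22RNAi (log2 change -3.24 ± 0.44, adjusted p = 2.25e-04). In aly the log2 change was -7.91 ± 0.44 (adjusted p = 4.3e-07), with no fold given because only replicate 3 was above a log2 of 3. In sa its change of -1.08 ± 0.44 did not pass (adjusted p = 0.086). Med22RNAi was lower than sa by 2.16 on the log2 scale (log2 difference -2.16 ± 0.44, adjusted p = 0.00458), a call that ended without replicate 2 of sa, at -1.96.

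eIF4E4 encodes an additional cap-binding protein. The wild-type arrays read 13.29, 13.60 and 13.43, the Med22RNAi arrays 10.97, 10.19 and 10.69, the aly arrays 3.52, 3.48 and 3.53, and the sa arrays 10.12, 10.11 and 10.63. Again wild type stood on top and aly far below the others, and Med22RNAi and sa overlapped. eIF4E4 fell 7.07-fold in Med22RNAi (log2 change -2.82 ± 0.21, adjusted p = 4.89e-06) and 8.89-fold in sa (-3.15 ± 0.21, adjusted p = 2.74e-06). Its log2 change in aly was -9.93 ± 0.21 (adjusted p = 1.73e-09), again close to the bottom of the scale, so the size of this change is not ranked against those of eIF3d2 and eIF3g2. Med22RNAi and sa differed by 0.33 with a 95% interval from -0.14 to 0.80 (adjusted p = 0.323).

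eIF4E7 and eIF4E5 are further cap-binding copies, and their aly values stayed far from the bottom. eIF4E7 read 12.36, 12.36 and 11.77 in wild type, 10.33, 9.83 and 9.98 in Med22RNAi, 10.16, 10.26 and 9.94 in aly, and 10.54, 10.19 and 10.89 in sa. Each mutant array lay below each wild-type array, and the mutant groups overlapped. eIF4E7 fell 4.34-fold in Med22RNAi (log2 change -2.12 ± 0.23, adjusted p = 5.29e-05) and 4.12-fold in aly (-2.04 ± 0.23, adjusted p = 5.27e-05), and its change in sa was -1.62 ± 0.23 (adjusted p = 3.15e-04), short of 4-fold. The aly call sat just past the limit, since it was -1.95 without replicate 3 of aly, -1.94 without replicate 1 of wild type and -1.94 without replicate 2 of wild type, and -1.40 with equal array medians. In Med22RNAi it was -1.99 after a further quantile normalization.

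eIF4E5 read 13.53, 13.90 and 13.83 in wild type, 12.87, 12.39 and 12.73 in Med22RNAi, 12.09, 12.16 and 11.93 in aly, and 12.12, 11.90 and 12.46 in sa. All mutant arrays lay below all wild-type arrays. The log2 changes were -1.09 ± 0.18 in Med22RNAi (adjusted p = 6.5e-04), -1.69 ± 0.18 in aly (adjusted p = 2.97e-05) and -1.60 ± 0.18 in sa (adjusted p = 6.18e-05). These passed the adjusted p but none passed the 4-fold limit. Its change in aly was far smaller than that of eIF4E4.

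eIF4E6 was the 1 copy that rose past the 4-fold limit. It read 7.52, 7.99 and 8.10 in wild type, 9.96, 10.07 and 10.13 in Med22RNAi, 11.59, 11.75 and 11.47 in aly, and 11.63, 11.15 and 11.54 in sa. Med22RNAi lay between wild type and the other mutants without overlap, and aly and sa overlapped. eIF4E6 rose 13.3-fold in aly (log2 change 3.74 ± 0.17, adjusted p = 1.36e-07), 11.9-fold in sa (3.57 ± 0.17, adjusted p = 6.1e-07) and 4.54-fold in Med22RNAi (2.18 ± 0.17, adjusted p = 7.81e-06). The Med22RNAi change was 1.72 with equal array medians and 1.95 after a further quantile normalization, both short of the limit. Med22RNAi was below aly by a log2 difference of -1.55 ± 0.17 (adjusted p = 8.09e-05) and below sa by -1.39 ± 0.17 (adjusted p = 2.88e-04).

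eIF4E3 had narrow differences. Its signals were 14.03, 14.26 and 14.45 in wild type, 14.33, 14.30 and 14.31 in Med22RNAi, 14.84, 14.73 and 14.71 in aly, and 13.61, 13.52 and 13.55 in sa. The aly arrays were the highest and the sa arrays the lowest, while Med22RNAi lay inside the wild-type range. The log2 change was 0.51 ± 0.09 in aly (adjusted p = 0.00103) and -0.68 ± 0.09 in sa (adjusted p = 2e-04). In Med22RNAi it was 0.07 ± 0.09 (adjusted p = 0.722), and this sign turned to -0.39 with equal array medians, to -0.07 after a further quantile normalization and to -0.04 without replicate 1 of wild type.

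eIF4G2, the second eIF4G, read 13.65, 13.01 and 12.50 in wild type, 13.03, 12.97 and 12.83 in Med22RNAi, 10.62, 11.04 and 10.48 in aly, and 13.40, 11.69 and 13.57 in sa. The aly arrays were below all others, and the remaining groups overlapped. Replicate 2 of sa was much lower than its fellows, as it was for eIF4G1, eIF4B, eIF5 and eIF4EHP. eIF4G2 fell 5.05-fold in aly (log2 change -2.34 ± 0.49, adjusted p = 0.00318), a change of -1.69 with equal array medians. In sa the change was -0.16 with a 95% interval from -1.28 to 0.95, or 0.43 without replicate 2 of sa. In Med22RNAi it was -0.11 with an interval from -1.22 to 1.01, and the sign turned without replicate 1 of wild type (0.19) and after a further quantile normalization (0.06).

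eIF3f2, a second form of subunit f, read 10.60, 10.85 and 10.83 in wild type, 11.46, 11.67 and 11.72 in Med22RNAi, 12.07, 12.16 and 12.18 in aly, and 12.18, 11.98 and 11.96 in sa. Every mutant array was above every wild-type array. The log2 changes of 0.86 ± 0.09 in Med22RNAi (adjusted p = 5.62e-05), 1.38 ± 0.09 in aly (adjusted p = 1.69e-06) and 1.28 ± 0.09 in sa (adjusted p = 5.07e-06) were short of 4-fold. With equal array medians the aly change of eIF3f2 became 2.02 and passed.

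To ask whether an extra copy moved differently from the general form of the same factor, the log2 difference between the pair was taken on each array and compared between genotypes, which removes any shift of a whole array. This gave 9 pairs in 3 comparisons. With 3 arrays against 3, an exact two-sided permutation test cannot go below p = 0.1, so none can pass, and the non-overlap of arrays and the size are given instead. How often the ratios of other gene pairs do not overlap was not computed, so non-overlap alone does not set these pairs apart.

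**Figure D2:**
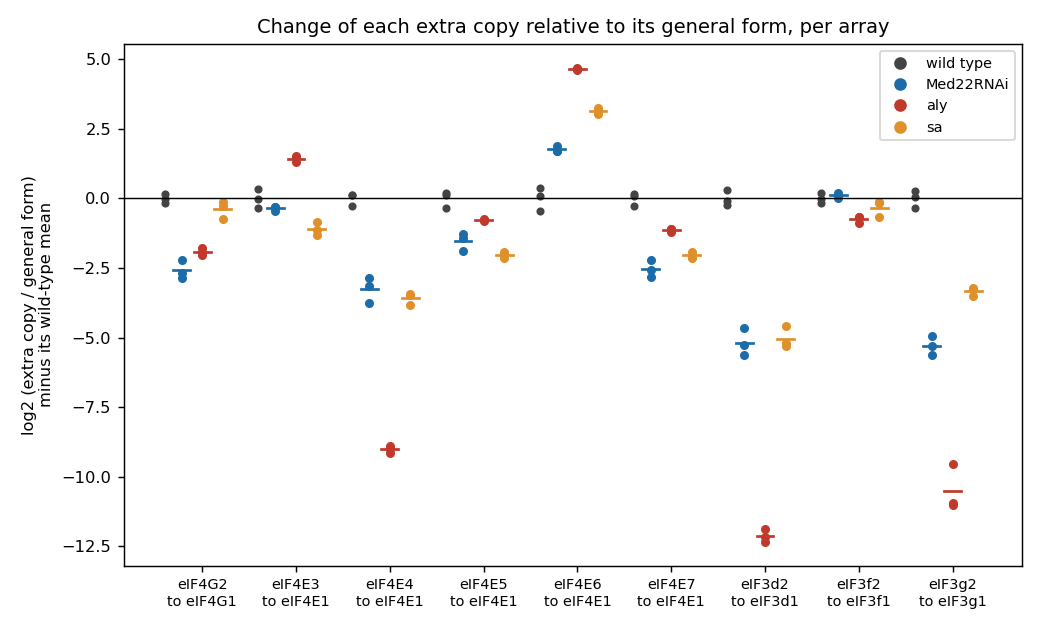
Log2 ratio of each extra copy to its general form on each array, minus the wild-type mean of that ratio (y axis), for 9 pairs (x axis). Points are arrays and bars are means of 3 arrays. eIF3d2, eIF3g2 and eIF4E4 lie below 0 on every mutant array, with a mean of -12.12 for eIF3d2 in aly, and eIF4E6 rises against eIF4E1 in every mutant.

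eIF3d2 and eIF3d1 moved in opposite directions. eIF3d1, the general subunit d, read 10.32, 10.08 and 10.46 in wild type, 12.20, 12.33 and 12.36 in Med22RNAi, 12.81, 12.90 and 12.90 in aly, and 12.13, 12.37 and 11.96 in sa. It was lowest in wild type, where eIF3d2 was highest. eIF3d1 rose 5.99-fold in aly (log2 change 2.58 ± 0.12, adjusted p = 1.29e-07) and 4.03-fold in Med22RNAi (2.01 ± 0.12, adjusted p = 1.51e-06), and in sa its 1.86 ± 0.12 was short of the limit. The Med22RNAi call was at the limit, with log2 changes of 1.996 without replicate 2 of Med22RNAi, 1.98 without its replicate 3, 1.91 without replicate 2 of wild type and 1.55 with equal array medians. Relative to eIF3d1, eIF3d2 had log2 changes of -5.18 ± 0.32 (SE, n = 3) for Med22RNAi, -12.12 ± 0.21 for aly and -5.03 ± 0.27 for sa, with no overlap of arrays (exact permutation p = 0.1 each).

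The g subunits behaved likewise. eIF3g1 read 10.03, 9.90 and 10.23 in wild type, 11.99, 12.24 and 12.10 in Med22RNAi, 12.60, 12.53 and 12.82 in aly, and 12.33, 12.61 and 11.99 in sa. All mutant arrays were above all wild-type arrays. eIF3g1 rose 4.16-fold in Med22RNAi (log2 change 2.06 ± 0.16, adjusted p = 6.65e-06), 6.04-fold in aly (2.59 ± 0.16, adjusted p = 8.22e-07) and 4.77-fold in sa (2.25 ± 0.16, adjusted p = 4.03e-06). The Med22RNAi call ended without replicate 2 of Med22RNAi (1.99), without replicate 2 of wild type (1.98) and with equal array medians (1.60). Against eIF3g1, the log2 change of eIF3g2 was -5.30 ± 0.27 in Med22RNAi, -10.51 ± 0.51 in aly and -3.33 ± 0.20 in sa (exact permutation p = 0.1 each, no overlap).

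The f pair did not diverge in this way. eIF3f1 was called in aly, where it rose 4.32-fold (log2 change 2.11 ± 0.13, adjusted p = 1.09e-06; 1.83 after a further quantile normalization), and changed by 0.74 ± 0.13 in Med22RNAi and 1.61 ± 0.13 in sa. Relative to eIF3f1, eIF3f2 changed by 0.12 ± 0.11 in Med22RNAi and -0.33 ± 0.20 in sa, where arrays overlapped (exact permutation p = 0.4 and 0.3). In aly the change was -0.73 ± 0.12 without overlap (exact permutation p = 0.1).

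The 5 extra cap-binding copies were set against eIF4E1, the general cap-binding protein, whose probe set may also detect other transcripts. eIF4E1 read 12.63, 12.55 and 12.39 in wild type, 12.90, 13.02 and 12.91 in Med22RNAi, 11.60, 11.71 and 11.51 in aly, and 13.04, 12.65 and 13.16 in sa. Its aly arrays were the lowest, and those of Med22RNAi and sa were slightly above wild type. The log2 changes were 0.42 ± 0.13 in Med22RNAi (adjusted p = 0.0222, and -0.04 with equal array medians), -0.92 ± 0.13 in aly (adjusted p = 1.99e-04) and 0.42 ± 0.13 in sa (adjusted p = 0.0228).

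Relative to eIF4E1, eIF4E4 had a log2 change of -3.24 ± 0.30 in Med22RNAi, -9.01 ± 0.15 in aly and -3.57 ± 0.18 in sa. The changes of eIF4E7 were -2.54 ± 0.22, -1.12 ± 0.14 and -2.05 ± 0.15, and those of eIF4E5 -1.51 ± 0.25, -0.78 ± 0.17 and -2.02 ± 0.18, in the same order of genotypes. eIF4E6 gained 1.76 ± 0.25, 4.65 ± 0.24 and 3.15 ± 0.25. For these 4 copies no mutant array overlapped wild type (exact permutation p = 0.1 each). eIF4E3 gained 1.43 ± 0.20 on eIF4E1 in aly and had a change of -1.11 ± 0.24 in sa, both without overlap (exact permutation p = 0.1 each), while in Med22RNAi the change of -0.35 ± 0.20 overlapped wild type (exact permutation p = 0.3).

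Both genes of the eIF4G pair were higher in Med22RNAi than in aly, while their ratio was below wild type in both groups. eIF4G1, the general scaffold, read 9.93, 9.46 and 8.61 in wild type, 11.52, 11.92 and 11.96 in Med22RNAi, 8.94, 9.11 and 8.69 in aly, and 9.81, 8.73 and 10.14 in sa. The Med22RNAi arrays were above all others, and the other groups overlapped. eIF4G1 rose 5.52-fold in Med22RNAi (log2 change 2.46 ± 0.42, adjusted p = 9.24e-04), whereas its changes were -0.42 with a 95% interval from -1.37 to 0.53 in aly (0.22 with equal array medians) and 0.22 with an interval from -0.73 to 1.18 in sa (-0.02 with equal array medians, -0.06 after a further quantile normalization). The ratio of eIF4G2 to eIF4G1 changed by a log2 of -2.57 ± 0.21 in Med22RNAi, where eIF4G1 was higher, and by -1.92 ± 0.12 in aly, where eIF4G2 was lower, with no overlap (exact permutation p = 0.1 each). In sa the ratio changed by -0.39 ± 0.21 and overlapped wild type (exact permutation p = 0.2). The muscle and hemocyte sums given above were also highest in Med22RNAi, and their part in the higher eIF4G1 signal was not tested.

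eIF4H2, the second form of the helicase cofactor eIF4H, is grouped here with the general eIF4 factors because its partner eIF4H1 was not analysed here. It read 12.68, 12.84 and 12.62 in wild type, 10.54, 9.59 and 9.92 in Med22RNAi, 2.56, 2.68 and 2.76 in aly, and 10.35, 10.65 and 10.69 in sa. Wild type was highest, aly was at the bottom, and sa lay between wild type and aly, overlapping Med22RNAi. eIF4H2 fell 6.48-fold in Med22RNAi (log2 change -2.69 ± 0.21, adjusted p = 7.92e-06), 4.43-fold in sa (-2.15 ± 0.21, adjusted p = 3.36e-05) and at least 840-fold in aly (adjusted p = 1.89e-09), a bound with the aly group set to a log2 of 3.

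Counted over all 44 probe sets, 8 rose and 5 fell in Med22RNAi, 9 rose and 7 fell in aly, and 6 rose and 3 fell in sa. These are 18.2% and 11.4% of the eIF probe sets in Med22RNAi, 20.5% and 15.9% in aly, and 13.6% and 6.82% in sa. Over all 18769 probe sets, 11.3% rose and 9.02% fell in Med22RNAi, 14.3% and 10.3% in aly, and 9.52% and 7.69% in sa. Among the 8039 probe sets with a mean log2 signal of at least 6, which nearly all eIF probe sets have, 19.8% rose and 15.7% fell in Med22RNAi, 28.0% and 18.3% in aly, and 18.9% and 13.3% in sa. The eIF shares lay below those of the bright probe sets, in part only slightly, and, except for the falls in sa, above those of all probe sets. Whether they differ from either background was not tested. The median log2 change of the 35 general probe sets was 0.81 in Med22RNAi, 0.93 in aly and 0.72 in sa, near the 0.64, 0.93 and 0.80 of all bright probe sets. For the 9 extra copies it was -1.09, -2.04 and -1.08.

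**Figure D3:**
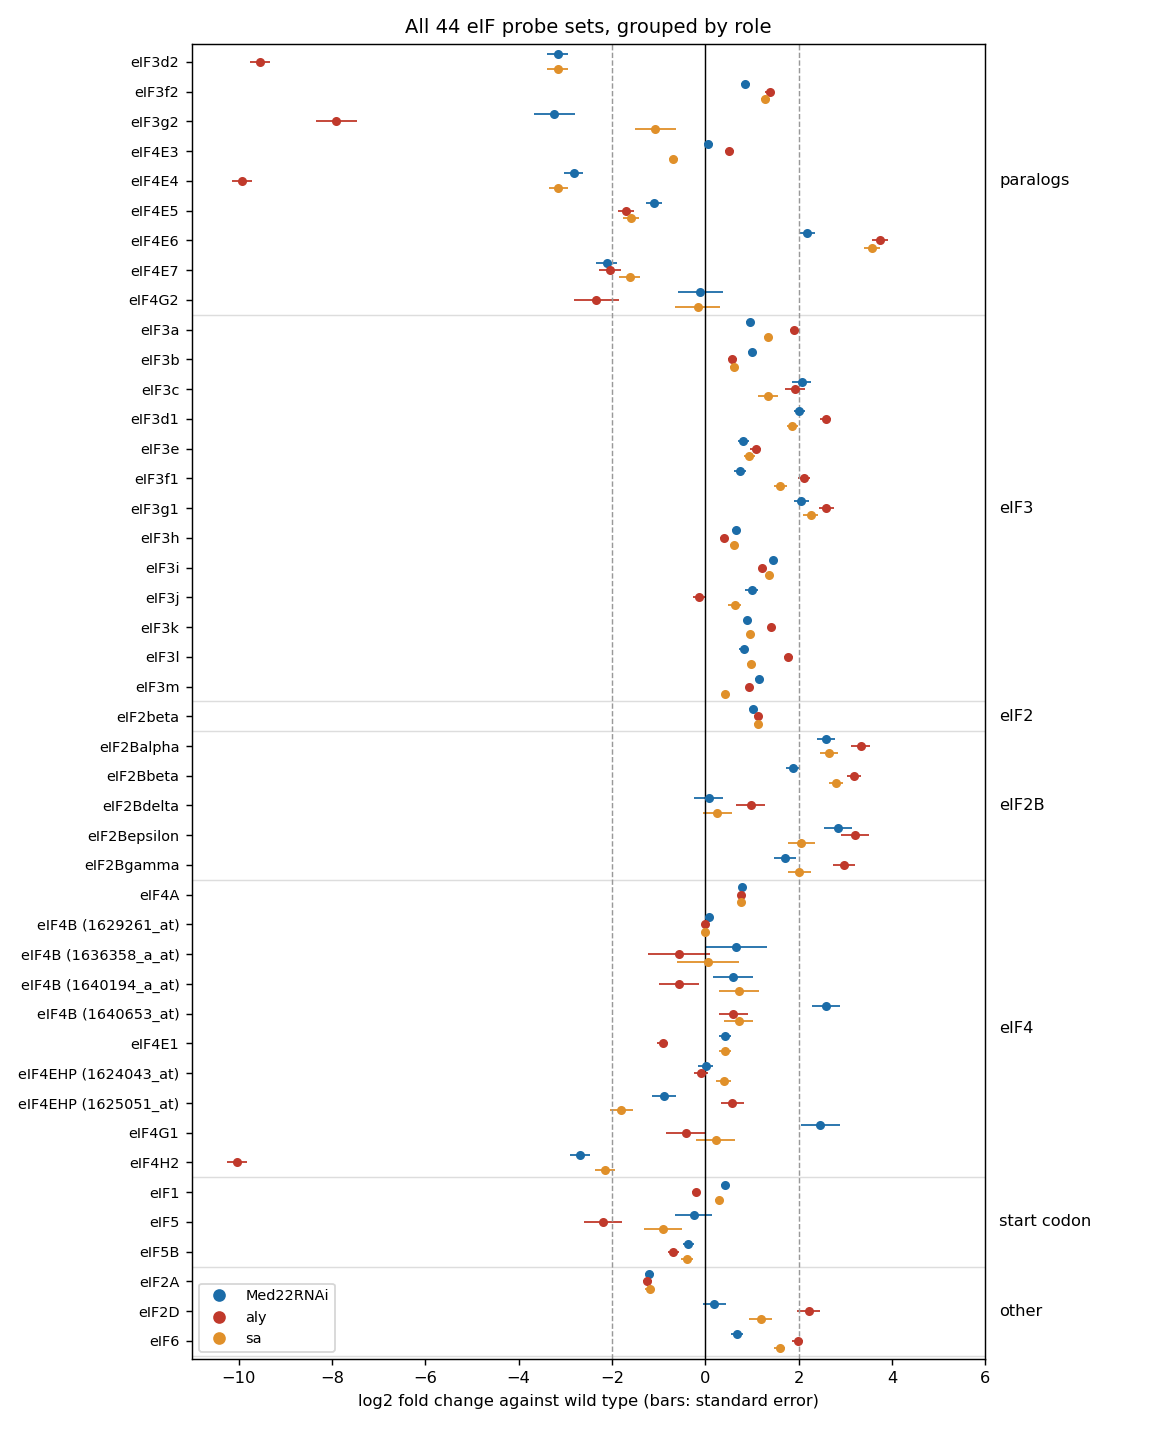
Log2 fold change against wild type (x axis) of the 44 eIF probe sets (y axis, grouped by role) in Med22RNAi, aly and sa. Points are limma estimates, bars are standard errors and dashed lines mark 4-fold. Most general factors lie to the right of 0, while eIF3d2, eIF3g2, eIF4E4 and eIF4H2 lie far to the left in aly.

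The general eIF3 complex was higher almost throughout. All 13 general subunits had an adjusted p under 0.05 and a positive change in Med22RNAi and sa, and 12 of 13 did in aly. Under this looser rule 28.3% of all probe sets and 51.3% of bright ones were higher in Med22RNAi, 30.1% and 56.7% in aly, and 28.0% and 55.1% in sa. With equal array medians the counts were 11 in Med22RNAi, 13 in aly and 12 in sa, and all 13 changes were positive in each. The median log2 change of the subunits was 0.99 in Med22RNAi, 1.41 in aly and 0.98 in sa, and most were under 4-fold. The exception was eIF3j, a loosely bound subunit, at -0.13 ± 0.14 in aly (adjusted p = 0.491; its sign was positive with equal array medians).

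Beside eIF3d1, eIF3f1 and eIF3g1, the core scaffold subunit eIF3c passed the 4-fold limit. Its signals were 8.79, 8.37 and 8.75 in wild type, 10.50, 10.89 and 10.70 in Med22RNAi, 10.42, 10.74 and 10.51 in aly, and 10.01, 10.35 and 9.57 in sa. All mutant arrays stood above wild type. eIF3c rose 4.17-fold in Med22RNAi (log2 change 2.06 ± 0.21, adjusted p = 3.27e-05), a call that ended without replicate 2 of Med22RNAi (1.97), without replicate 2 of wild type (1.93), with equal array medians (1.60) and after a further quantile normalization (1.89). Its change was 1.92 ± 0.21 in aly, 2.001 without replicate 1 of wild type and 2.57 with equal array medians, and 1.34 ± 0.21 in sa. eIF3h, an uncalled subunit with a small range of genotype means, had log2 changes of 0.66 (Med22RNAi), 0.39 (aly) and 0.61 (sa).

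eIF2B, the exchange factor that recharges eIF2, had the steepest rise among the general groups. Of its 5 subunits, 2 rose in Med22RNAi and 4 rose in both aly and sa, against 11.3%, 14.3% and 9.52% of all probe sets and 19.8%, 28.0% and 18.9% of the bright ones, although only 2 of the sa calls held with equal array medians or after a further quantile normalization. The median log2 change of the 5 was 1.88 in Med22RNAi, 3.18 in aly and 2.06 in sa. Of the 9 germ-line markers, bam, kmg and Rbp4 were also lowest in wild type and highest in aly, while 4 were called lower in aly. Rbp4 had mean log2 signals of 10.9 in wild type, 13.4 in Med22RNAi, 14.4 in aly and 13.6 in sa. Several general eIF3 subunits were instead highest in Med22RNAi, such as eIF3j, with means of 13.0 there and 11.9 in aly. The part of these markers in the rises of eIF2B, the general eIF3 subunits and eIF4E6 was not tested. The plot of eIF2B and other general factors shows the arrays.

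**Figure D4:**
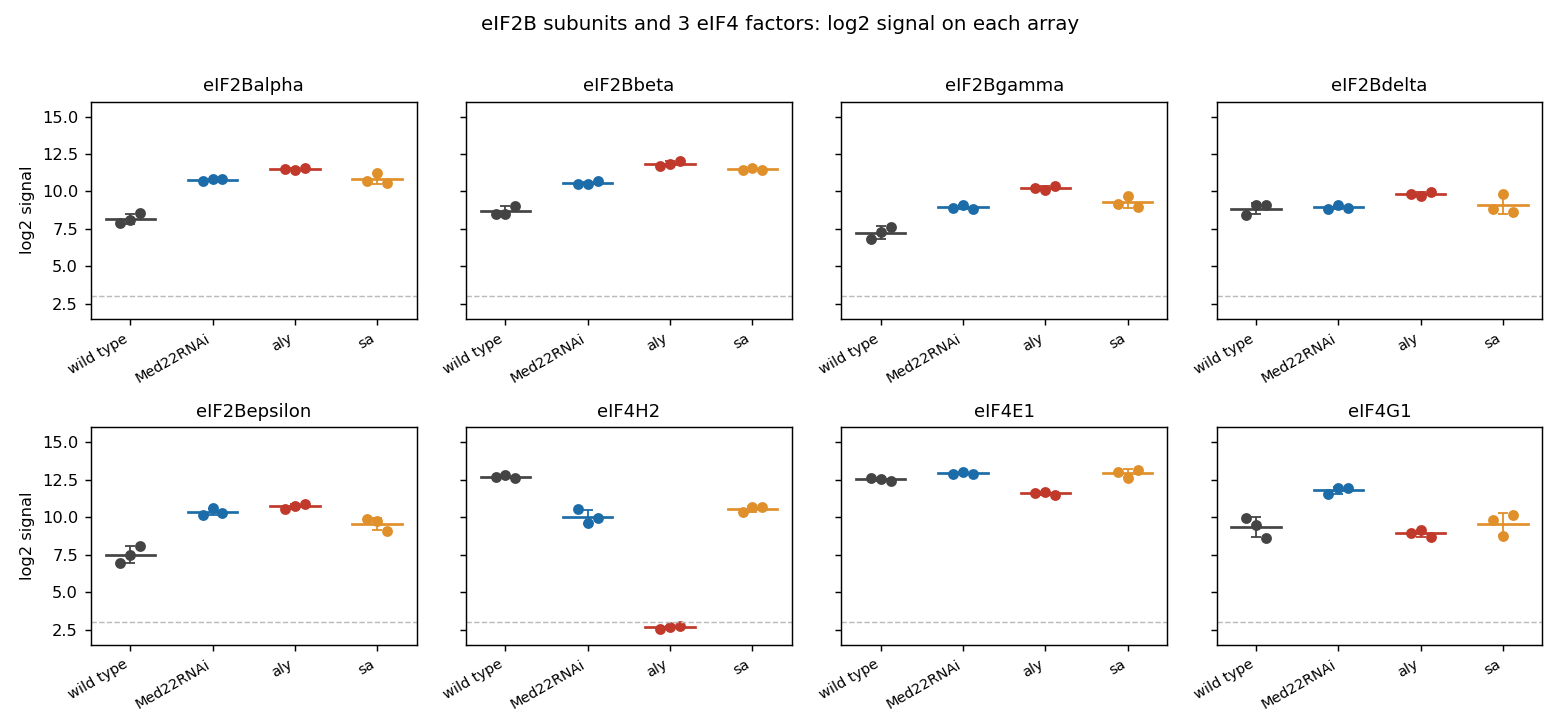
Log2 signal (y axis) of the 5 eIF2B subunits, eIF4H2, eIF4E1 and eIF4G1 on each array, by genotype (x axis). Points are arrays, horizontal bars means and error bars SDs of 3 arrays, and the dashed line marks a log2 of 3. Wild type is lowest for eIF2Balpha, eIF2Bbeta, eIF2Bgamma and eIF2Bepsilon, and eIF4G1 is highest in Med22RNAi.

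eIF2Balpha, a regulatory subunit, read 7.91, 8.10 and 8.56 in wild type, 10.71, 10.82 and 10.82 in Med22RNAi, 11.52, 11.45 and 11.58 in aly, and 10.70, 11.26 and 10.58 in sa. Wild type was below every mutant array and aly above all others. It rose 6.02-fold in Med22RNAi (log2 change 2.59 ± 0.20, adjusted p = 6.44e-06), 10.03-fold in aly (3.33 ± 0.20, adjusted p = 7.04e-07) and 6.29-fold in sa (2.65 ± 0.20, adjusted p = 5.82e-06).

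The catalytic subunit, eIF2Bepsilon, read 6.97, 7.50 and 8.06 in wild type, 10.17, 10.60 and 10.28 in Med22RNAi, 10.55, 10.72 and 10.90 in aly, and 9.88, 9.72 and 9.10 in sa. The wild-type arrays were spread over more than a log2 of 1, yet lay below all others. eIF2Bepsilon rose 7.15-fold in Med22RNAi (log2 change 2.84 ± 0.29, adjusted p = 4e-05), 9.27-fold in aly (3.21 ± 0.29, adjusted p = 1.28e-05) and 4.16-fold in sa (2.06 ± 0.29, adjusted p = 3.43e-04). The sa call ended without replicate 1 of sa (1.90), replicate 2 of sa (1.98) or replicate 1 of wild type (1.79), with equal array medians (1.81) and after a further quantile normalization (1.70).

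eIF2Bgamma, which pairs with eIF2Bepsilon, read 6.80, 7.30 and 7.65 in wild type, 8.90, 9.12 and 8.86 in Med22RNAi, 10.20, 10.08 and 10.39 in aly, and 9.19, 9.67 and 8.95 in sa. It was lowest in wild type and highest in aly. eIF2Bgamma rose 7.85-fold in aly (log2 change 2.97 ± 0.24, adjusted p = 5.12e-06) and 4.05-fold in sa (2.02 ± 0.24, adjusted p = 9.91e-05), but its 1.71 ± 0.24 in Med22RNAi was short of the limit. The sa call ended without replicate 2 of sa (1.82), without replicate 1 of wild type (1.79), with equal array medians (1.78) and after a further quantile normalization (1.65).

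eIF2Bbeta, a second regulatory subunit, read 8.47, 8.51 and 9.05 in wild type, 10.52, 10.49 and 10.67 in Med22RNAi, 11.71, 11.83 and 12.04 in aly, and 11.45, 11.57 and 11.42 in sa. The 4 groups did not overlap. eIF2Bbeta rose 9.08-fold in aly (log2 change 3.18 ± 0.15, adjusted p = 1.79e-07) and 6.98-fold in sa (2.80 ± 0.15, adjusted p = 1.12e-06). In Med22RNAi its change was 1.88 ± 0.15 (adjusted p = 9.32e-06), or 2.07 without replicate 3 of wild type, and Med22RNAi was below sa by a log2 difference of -0.92 ± 0.15 (adjusted p = 0.00159).

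The fifth subunit, eIF2Bdelta, was measured with a probe set that may also detect other transcripts, as were eIF3b, eIF4A, eIF4E1 and eIF5. Its signals were 8.41, 9.10 and 9.07 in wild type, 8.82, 9.06 and 8.91 in Med22RNAi, 9.85, 9.70 and 9.95 in aly, and 8.86, 9.85 and 8.63 in sa. Med22RNAi and sa overlapped wild type. The log2 changes were 0.07 in Med22RNAi (95% interval from -0.63 to 0.78; -0.39 with equal array medians, -0.25 after a further quantile normalization and -0.15 without replicate 1 of wild type), 0.97 ± 0.31 in aly (adjusted p = 0.0292) and 0.25 in sa (interval from -0.45 to 0.96; -0.11 without replicate 2 of sa and -0.11 after a further quantile normalization).

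eIF2 itself was represented by its beta subunit, which had log2 changes of 1.03, 1.12 and 1.12 (SE 0.08 each) in Med22RNAi, aly and sa (adjusted p = 9.32e-06, 3.24e-06 and 5.88e-06). eIF2D, which delivers tRNA to the ribosome without eIF2, read 8.72, 9.06 and 9.08 in wild type, 9.05, 9.23 and 9.15 in Med22RNAi, 11.18, 11.07 and 11.27 in aly, and 9.87, 10.79 and 9.75 in sa. aly was above all other arrays and Med22RNAi overlapped wild type. eIF2D rose 4.66-fold in aly (log2 change 2.22 ± 0.25, adjusted p = 4.86e-05; 1.88 after a further quantile normalization). The sa change was 1.19 ± 0.25, and the Med22RNAi change was 0.19 with a 95% interval from -0.37 to 0.75, or -0.27 with equal array medians and -0.10 after a further quantile normalization.

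eIF2A, a factor outside the main pathway, had much the same change in each mutant, at -1.21 ± 0.10 in Med22RNAi, -1.25 ± 0.10 in aly and -1.19 ± 0.10 in sa (adjusted p = 8.39e-06, 4.1e-06 and 9.24e-06), short of 4-fold. eIF6, which keeps the ribosomal subunits apart, changed by 0.68 ± 0.12, 1.98 ± 0.12 and 1.59 ± 0.12 in the same order (adjusted p = 0.00139, 9.1e-07 and 6.86e-06).

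eIF5, which triggers GTP hydrolysis by eIF2 at the start codon, read 12.37, 12.18 and 11.13 in wild type, 11.76, 11.63 and 11.53 in Med22RNAi, 9.71, 9.88 and 9.53 in aly, and 11.13, 10.18 and 11.64 in sa. The aly arrays were the lowest, and replicate 3 of wild type and replicate 2 of sa stood below their groups. eIF5 fell 4.56-fold in aly (log2 change -2.19 ± 0.41, adjusted p = 0.00152), a call that ended without replicate 1 of wild type (-1.95) and with equal array medians (-1.55). Its changes were -0.25 with a 95% interval from -1.18 to 0.67 in Med22RNAi and -0.91 with an interval from -1.84 to 0.02 in sa.

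eIF4A, eIF1 and eIF5B were among the uncalled factors with the smallest range of genotype means. eIF4A, the helicase, changed by 0.78, 0.77 and 0.77 (SE 0.05 each) in Med22RNAi, aly and sa. eIF1, which guards the start codon choice, changed by 0.41 ± 0.08 in Med22RNAi (-0.05 with equal array medians), -0.20 ± 0.08 in aly (0.44 with equal array medians) and 0.28 ± 0.08 in sa. eIF5B, which joins the ribosomal subunits, changed by -0.36 ± 0.12, -0.69 ± 0.12 and -0.39 ± 0.12.

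eIF4B, another helper of eIF4A, has 4 probe sets that differed from each other. The brightest changed by 0.59 in Med22RNAi with a 95% interval from -0.39 to 1.57, and a second one by 0.65 with an interval from -0.87 to 2.18. Another read 9.35, 8.95 and 8.39 in wild type and 11.43, 11.58 and 11.44 in Med22RNAi, and rose 5.998-fold (log2 change 2.58 ± 0.30, adjusted p = 9.2e-05). It read 9.58, 9.67 and 9.25 in aly and 9.93, 8.98 and 9.92 in sa, where its changes of 0.60 and 0.72 did not pass (adjusted p = 0.159 and 0.1). The fourth stayed between 2.12 and 2.35 on every array. eIF4EHP, a cap-binding repressor chosen here after its values were seen, has a dim probe set and a bright one, which read 10.27, 10.52 and 10.55 in wild type, 9.56, 9.52 and 9.61 in Med22RNAi, 10.94, 11.09 and 11.06 in aly, and 9.12, 7.96 and 8.87 in sa. No groups overlapped. Its log2 change was -0.89 ± 0.25 in Med22RNAi, 0.58 ± 0.25 in aly and -1.80 ± 0.25 in sa (adjusted p = 0.018, 0.101 and 3.1e-04).

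The mutants were also compared directly. Med22RNAi exceeded aly for 6 of the 44 probe sets, against 10.2% of all probe sets, and fell below it for 1, against 6.52%. Shares among the bright probe sets, which were larger than those of all probe sets against wild type, were not computed for the direct comparisons. The 6 were eIF4H2, at least 130-fold higher, eIF4E4 (log2 difference 7.11 ± 0.21, adjusted p = 2.13e-08), eIF3d2 (6.38 ± 0.22, adjusted p = 5.72e-08), eIF3g2 (4.67 ± 0.44, adjusted p = 2.64e-05), eIF4G1, 7.39-fold (2.89 ± 0.42, adjusted p = 4.22e-04), and eIF4G2, 4.69-fold (2.23 ± 0.49, adjusted p = 0.00502). No fold is given for eIF4E4, eIF3d2 and eIF3g2, whose aly signals lie at or near the bottom of the scale. With equal array medians the differences were 1.78 for eIF4G1 and 1.13 for eIF4G2, which ended both calls. eIF2D was the 1 below aly, at -2.03 ± 0.25 (adjusted p = 1.39e-04), or -1.98 without replicate 1 of Med22RNAi, without replicate 3 of aly or after a further quantile normalization.

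Against sa, Med22RNAi was higher for eIF4G1 alone (log2 difference 2.24 ± 0.42, adjusted p = 0.00284; background 4.57%) and lower for eIF3g2 alone (background 4.27%). The eIF4G1 call ended without replicate 2 of sa (1.82), as that of eIF3g2 did. aly was below sa for 5 probe sets (background 7.32%), which were eIF4H2 at least 190-fold, eIF4E4 (log2 difference -6.78 ± 0.21, adjusted p = 3.32e-08), eIF3g2 (-6.84 ± 0.44, adjusted p = 3.29e-06), eIF3d2 (-6.38 ± 0.22, adjusted p = 6.85e-08) and eIF4G2 4.51-fold (-2.17 ± 0.49, adjusted p = 0.00816). The eIF4G2 call ended without replicate 1 of sa (-1.92), without replicate 3 of sa (-1.83), with equal array medians (-1.29) and in a fit of aly and sa alone (adjusted p = 0.0638). aly was above sa for eIF4EHP (2.38 ± 0.25, adjusted p = 9.47e-05; background 2.96%).

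Regulators and partners of the initiation factors were followed in a list of 22 genes, of which 18 were measured with a probe set of their own; Thor, cup, pix and Tor were not analysed here. In Med22RNAi 3 of 18 passed, all higher, in aly 3 were higher and 4 lower, and in sa 2 passed, both higher. Over all probe sets 11.3% were higher in Med22RNAi, 14.3% higher and 10.3% lower in aly, and 9.52% higher in sa, and over the bright ones 19.8%, 28.0% and 18.3%, and 18.9%. With equal array medians the partner counts became 2 higher and 2 lower in Med22RNAi, 4 and 2 in aly, and 1 and 1 in sa, and a further quantile normalization left the counts as they were. Their median log2 change was 0.43, -0.13 and 0.56. DENR and MCTS1, which together act in reinitiation much as eIF2D does, rose in every mutant, although the DENR calls in Med22RNAi and sa ended with equal array medians (1.59 and 1.92). MCTS1 read 3.08, 3.86 and 3.40 in wild type, 9.06, 9.44 and 9.16 in Med22RNAi, 6.64, 6.09 and 5.72 in aly, and 6.68, 6.57 and 6.36 in sa, with Med22RNAi above the rest. Its log2 changes were 5.77 (adjusted p = 4.02e-07), 2.70 (adjusted p = 1.87e-05) and 3.09 (adjusted p = 1.17e-05). DENR rose by 2.05, 2.21 and 2.16 (adjusted p = 2.62e-06, 7.98e-07 and 2.1e-06).

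S6k, the ribosomal S6 kinase, rose in Med22RNAi (log2 change 4.57, adjusted p = 7.83e-05), with arrays at 9.60, 10.02 and 9.87 against 5.94, 5.11 and 4.73 in wild type. Its aly arrays of 5.13, 6.31 and 5.23 and sa arrays of 6.81, 4.92 and 6.01 overlapped wild type. The muscle and hemocyte sums given above were also highest in Med22RNAi. Their part in the higher signals of S6k, MCTS1 and the called eIF4B probe set was not tested. In aly, NAT1, an eIF4G relative without a cap-protein binding site, fell (log2 change -3.19, adjusted p = 1.17e-04), as did 4E-T, an eIF4E-binding repressor (-2.56, adjusted p = 0.00464), the helicase bel (-2.10, adjusted p = 2.08e-04) and bol, an RNA-binding protein needed for meiotic entry (-4.68, adjusted p = 8.17e-06). The calls of 4E-T and bel in aly ended with equal array medians (-1.92 and -1.45). Short of 4-fold, bel also fell in Med22RNAi (-1.86, adjusted p = 5.21e-04) and sa (-1.78, adjusted p = 7.44e-04). So did bol in Med22RNAi (-1.88, adjusted p = 0.00375) and sa (-1.52, adjusted p = 0.0129). NAT1 changed by -0.19 in Med22RNAi and -1.16 in sa (adjusted p = 0.931 and 0.0454), and 4E-T by 0.17 and 0.47. The aly arrays of bol read 8.37, 8.57 and 8.44 against 13.31, 13.18 and 12.92 in wild type, and its other probe sets were near the lowest value. larp, an RNA-binding protein, rose in aly by 2.35 with its brightest probe set (adjusted p = 0.00102), while its other probe sets gave -1.98 and 1.07 (adjusted p = 0.15 and 0.117). The brightest probe sets of NAT1, 4E-T, bol and larp may also detect other transcripts.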

How the data were processed

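Testis RNA was hybridised to 12 Affymetrix Drosophila 2.0 arrays. The deposited values are log2 signals that the authors made with GCRMA, which corrects background, aligns the arrays and summarises each probe set. Per the methods, the Med22RNAi arrays were analysed jointly with the published ones, while the GCRMA version, and whether that step itself covered the 12 arrays at once, are not given in the sources used here. Of 18952 rows, 183 control probe sets were removed. Gene symbols came from the array's annotation table.

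One limma model (version 3.58.1 under R 4.3.3, functions lmFit and eBayes) estimated the mean of each genotype from the 12 arrays, with Benjamini-Hochberg adjustment across 18769 probe sets. A fold is given as a bound, with the dim group set to a log2 of 3, if none of that group's 3 arrays reached 3. Pairs were compared by an exact two-sided permutation test in scipy 1.17.1. The fit was tested on simulated data. pandas 2.3.3 and matplotlib 3.10.9 in Python 3.11.15 made the summaries and figures.

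The eIF members, their roles, the partner list and the marker lists were chosen with earlier results of these data known. Named with values were all extra copies and their general forms, every other member called against wild type, the 5 uncalled members with the smallest range of genotype means, and each partner gene called. The brightest probe set stands for a gene. Labels give replicate numbers but no separate animals or batches, while the methods call the Med22RNAi replicates biological. The p-values measure the spread between these arrays, and the small number of arrays limits the precision. Alternatives were array centring, a further quantile normalization, floors and filters for dim probe sets, other variance and fold settings, fits of 2 genotypes, a replicate block and each array left out.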

Additional observations from a re-analysis of the deposited data

Results flagged for a closer look

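Some factors changed in opposite directions in different mutants, each with an adjusted p under 0.05 in limma, while the direct comparison of the mutants also passed. All of these changes are under 4-fold. eIF4E1, the general cap-binding protein, was higher than wild type in Med22RNAi and lower in aly, and the difference of the changes was 1.34 on the log2 scale (adjusted p = 2.59e-05), although with equal array medians the Med22RNAi change turned to -0.04, the aly change became -0.27 and the difference 0.23 (adjusted p = 0.101), no longer past the threshold. eIF4E1 was also higher in sa and lower in aly, with a difference of -1.34 for aly against sa (adjusted p = 3.99e-05), which became -0.46 (adjusted p = 0.00607) with equal array medians. For eIF4E3 the aly change was positive and the sa change negative, with a difference of 1.20 for aly against sa (adjusted p = 9.27e-06), or 2.08 with equal array medians.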

How the results depend on the processing

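Over all alternatives, eIF3d2, eIF4E4, eIF4H2 and eIF2Balpha kept their calls against wild type in every mutant group. eIF3g2 kept its calls in aly and Med22RNAi, and eIF4E6 its calls in aly and sa. These are examples, and other calls held as well. Counts of called eIF probe sets moved by more than 1.5 times as follows. The share of all probe sets called under the same setting stands in parentheses. With equal array medians, 4 instead of 8 rose in Med22RNAi (7.43%), 15 instead of 9 rose (21.5%) and 4 instead of 7 fell (9.04%) in aly, 10 instead of 1 were lower in Med22RNAi than in aly (16.5%), and 3 instead of 1 were higher in aly than in sa (9.69%). A further quantile normalization gave 0 instead of 1 lower in Med22RNAi than in aly (8.57%) and 2 instead of 1 higher in Med22RNAi than in sa (4.61%). With a 2-fold limit, 14, 18 and 15 rose in Med22RNAi, aly and sa (22.9%, 25.0% and 22%), and 7 fell in sa (11.8%). Under that limit 10 were higher and 7 lower in Med22RNAi than in aly (15.7% and 14.6%), 2 higher and 2 lower in Med22RNAi than in sa (11.4% and 11.1%), and 4 higher and 8 lower in aly than in sa (10.3% and 10.7%). Leaving out each array in turn gave 5 to 9 higher in Med22RNAi, 0 to 1 lower in Med22RNAi than in aly, and 0 to 2 higher and 0 to 1 lower in Med22RNAi than in sa. The cause was not tested.

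Signs against wild type turned for these members under the scaling alternatives, none of them called. With equal array medians they were, in Med22RNAi, eIF1 (-0.047), eIF2Bdelta (-0.39), eIF2D (-0.27), eIF4E1 (-0.042), eIF4E3 (-0.39) and the dim probe sets of eIF4B (-0.39) and eIF4EHP (-0.45). In aly they were eIF1 (0.44), eIF3j (0.51), eIF4G1 (0.22), 2 probe sets of eIF4B (0.077 and 0.072) and the dim one of eIF4EHP (0.55), and in sa, eIF4G1 (-0.0165) and 1 probe set of eIF4B (-0.18). After a further quantile normalization they were, in Med22RNAi, eIF2Bdelta (-0.25), eIF2D (-0.10), eIF4E3 (-0.066), eIF4G2 (0.059) and the dim eIF4EHP probe set (-0.37), in aly, the dim probe sets of eIF4EHP (0.72) and eIF4B (-0.0023), and in sa, eIF2Bdelta (-0.11), eIF4G1 (-0.061) and 2 probe sets of eIF4B (-0.14 and 0.028). With arrays left out, the Med22RNAi changes ran from -0.15 to 0.19 for eIF2Bdelta, -0.041 to 0.17 for eIF4E3 and -0.38 to 0.19 for eIF4G2, and the sa changes from -0.11 to 0.50 for eIF2Bdelta, -0.14 to 0.64 for eIF4G1 and -0.51 to 0.43 for eIF4G2. Values under a log2 of 4 set to 4 reduced the aly change of eIF4E4 relative to eIF4E1 to -8.52, of eIF3d2 relative to eIF3d1 to -10.99 and of eIF3g2 relative to eIF3g1 to -9.66, since this floor lies above all of those aly signals except that of eIF3g2 in replicate 3.

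Deviations of same-numbered arrays from their group means correlated at -0.27 to 0.33. With means of 3 arrays this cannot settle whether the numbers pair samples, and the labels do not say. A fit with the replicate block called 8 higher and 5 lower in Med22RNAi, 9 and 7 in aly, and 6 and 3 in sa, the same counts as without it. Signals near the bottom of the scale limit the size of the aly changes, and 3 arrays per genotype limit the precision.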
